A study of Mus musculus with 12 samples.

Results

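The MYC, MAX and MXD network is a set of transcription factors that share a DNA-binding domain of the basic helix-loop-helix leucine zipper kind, and it was described here by 10 genes: Myc, Mycn, Max, Mxd1, Mxd3, Mxd4, Mxi1, Mnt, Mlx and Mga. The genes were picked by symbol, and all 10 were found among the 13283 genes with a deposited value. The network was put forward with earlier results of these data known, among them the lower Mycn level of WT cells treated with PI3Kdi. That Mycn value and its error are therefore given below as a description and not as a test. The libraries were made from cytotoxic T cells (CTL), that is CD8+ T cells from lymph nodes or spleens of female mice 11 to 27 weeks old. The cells had been activated through CD3 and CD28 for 48 h in 20 ng/mL of IL-2 plus 2 ng/mL of IL-12. They were then expanded, and both cytokines were kept at these doses to the end of the culture. Both genotypes carried a Cre recombinase driven by the granzyme B promoter: WT cells were GzmB cre+, and FOXO1-GFP KO cells were FOXO1-GFPfl/fl Gzmb cre+, in which Cre removes a floxed Foxo1 exon with the GFP tag. Cells of each genotype were cultured for the last 24 h without or with 10 µM IC87114 (PI3Kdi), an inhibitor of PI3K p110δ, the lipid kinase subunit of leukocytes that acts upstream of AKT. Cultures without PI3Kdi received the vehicle, DMSO, and are called untreated below. The 4 groups, WT, WT+PI3Kdi, FOXO1-GFP KO and FOXO1-GFP KO+PI3Kdi, had 3 libraries each. Live CD8+ cells were sorted, and the KO cells were also gated as GFP negative and so had lost the tagged protein.

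MAX is the common partner of the network. MYC and MYCN bind E-box DNA as dimers with MAX and raise transcription of growth, ribosome and metabolism genes, whereas MXD1, MXD3, MXD4, MXI1 and MNT compete for MAX and recruit the SIN3 corepressor with its histone deacetylases. MGA joins MAX in a Polycomb-like repressor, and MLX is a MAX-like partner for the glucose-sensing factors MONDOA (Mlxip) and ChREBP and for some of the repressors. In T cells MYC is induced by antigen receptor and IL-2 signals and is needed for the growth and metabolic switch of activated cells.

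Promoter sequences of the genes whose values are discussed most are shown first. RefSeq promoter sequences (GRCm38.p6) matched 9 of the 10 genes, with no entry for Myc. Windows of 250 bases before each start were searched on both strands for the E-box CACGTG, to which MYC, MAX and MLX dimers bind, and for the FOXO site TGTTTAC, which reads GTAAACA on the other strand. The E-box was present in 3 of the 9 genes, Mlx, Mnt and Mxd4, at 40, 123 and 219 bases before the start, and in 6.86% of the 27025 mouse genes with windows of this length (6.02% of 32851 windows). The FOXO site was present in 1 of the 9 genes, in the last of the 3 windows of Mxi1, 231 bases before that start, and in 3.54% of all genes (3.17% of windows). That Mxi1 window lies within the first exon of other Mxi1 transcripts, so only the site with 10 bases on either side is shown. The stretches below run 5′ to 3′, end before the first annotated exon, and carry the motifs in capitals. Mycn (chr12:12941915-12942086, minus strand) and Max (chr12:76962249-76962498, minus strand) hold neither motif, Mnt (chr11:74830674-74830919, plus strand) and Mlx (chr11:101087040-101087276, plus strand) hold the E-box, and the Mxi1 site is at chr19:53329454-53329480 on the plus strand.
Mycn: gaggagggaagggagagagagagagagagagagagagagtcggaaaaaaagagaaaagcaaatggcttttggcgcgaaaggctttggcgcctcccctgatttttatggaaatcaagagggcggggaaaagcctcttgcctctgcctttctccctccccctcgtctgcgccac
Max: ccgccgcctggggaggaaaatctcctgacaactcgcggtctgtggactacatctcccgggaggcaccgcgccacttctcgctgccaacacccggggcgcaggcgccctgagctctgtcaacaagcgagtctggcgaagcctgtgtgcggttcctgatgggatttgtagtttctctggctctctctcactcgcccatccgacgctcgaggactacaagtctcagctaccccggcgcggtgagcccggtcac
Mlx: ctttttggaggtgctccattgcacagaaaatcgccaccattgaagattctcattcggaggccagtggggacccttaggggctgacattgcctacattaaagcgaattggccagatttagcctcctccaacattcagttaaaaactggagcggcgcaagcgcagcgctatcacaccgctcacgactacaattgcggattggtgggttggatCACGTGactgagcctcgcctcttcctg
Mnt: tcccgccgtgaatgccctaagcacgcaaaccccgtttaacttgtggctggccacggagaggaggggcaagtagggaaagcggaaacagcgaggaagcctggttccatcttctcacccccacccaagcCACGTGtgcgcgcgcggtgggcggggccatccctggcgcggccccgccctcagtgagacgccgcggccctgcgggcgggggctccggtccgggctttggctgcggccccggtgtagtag
Mxi1 site: gcgcggagaaGTAAACAaaccgcgcgc
These matches describe the letters of the windows only.

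The deposited values are FPKM, fragments scaled to exon length and library size, so levels can be set side by side between genes. Library sizes estimated from the spacing of low FPKM values ran from 12.9 to 48.0 M reads, and each of the 10 mRNA rested on at least 288 reads in every library and at most 6637. Depth went with treatment in WT, at 25.1, 48.0 and 27.8 M reads untreated against 19.0, 15.2 and 15.4 M with PI3Kdi. In FOXO1-GFP KO the sizes of untreated and treated libraries overlapped. Foxo1 checked the genotype labels: its level was 7.18 ± 2.43 FPKM in WT, against 1.03 ± 0.432 FPKM in FOXO1-GFP KO (SD, n = 3), and every KO library was below every WT library. All 9 markers of CD8 T cells and CTL, such as Gzmb and Cd8a, were in the table, with a summed level of 14069 to 20744 FPKM per library. Of the markers of other cells, 4 of 8 for B cells were in the table, and their sum was 13.7 to 16.9 FPKM in WT, 6.49 to 8.13 FPKM in FOXO1-GFP KO, and with PI3Kdi 16.8 to 20.7 FPKM in WT against 5.75 to 8.49 FPKM in the KO. In the limma fit with a replicate block, described below, Igkc and Cd4 were called higher in WT after PI3Kdi. Both were low, with means of 0.907 and 2.14 FPKM (Igkc) and 0.52 and 0.893 FPKM (Cd4) without and with PI3Kdi. The other markers of these lists were not called there. Their log2 fold changes were 0.51 (Ighm), 0.02 (Cd79b), -0.48 (Cd74), -0.05 (Cd40lg) and -0.09 (Zbtb7b). Of these Ighm, at means of 8.67 and 12.3 FPKM without and with PI3Kdi, had a limma adjusted p of 0.0191 and missed only the fold limit. The calls for genotype were that the KO had less Ighm than WT without PI3Kdi and less Ighm and Igkc with it. The sums were 4.96 to 8.24 FPKM for 3 of 4 CD4 T cell markers, 15 to 27.2 FPKM for 4 of 7 myeloid markers and 84.1 to 114 FPKM for 2 of 3 NK cell markers, of which Eomes is also made by CD8 T cells. With the block, 6 of the 9 CTL markers were higher and Prf1 was lower with PI3Kdi in FOXO1-GFP KO at a limma adjusted p under 0.05. That is 77.8% of the list, where 10.1% of all genes passed. In WT Cd8a was higher (0.29, adjusted p = 0.0239) and Prf1 lower (-0.47, adjusted p = 0.0284). That is 22.2% of the list, where 7.41% of all genes passed. Of the 9 markers, 0 were past the 1.5-fold limit in either genotype. The part of other cells in the values below was not tested. In bulk RNA, fewer cells with an mRNA and less of it per cell cannot be told apart.

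Levels fell into an abundant set and a low set. In WT, Myc was highest at 42.0 ± 9.20 FPKM (SD, n = 3), followed by Mlx at 38.5 ± 0.403, Mycn at 35.7 ± 1.90 and Max at 29.7 ± 2.49. The repressors were lower, with Mxd3 at 12.1 ± 3.82 FPKM, Mxi1 at 10.5 ± 1.22, Mnt at 8.88 ± 1.86, Mxd1 at 8.45 ± 1.65, Mga at 4.65 ± 1.64 and Mxd4 at 3.00 ± 0.570. Myc and Mlx overlapped between libraries, as did Mxd3, Mxi1, Mnt and Mxd1 each with its neighbour, and Mga with Mxd4. Every library of Mlx was above those of Mycn, Mycn above Max, Max above Mxd3 and Mxd1 above Mga. In the KO groups Mnt and Mxi1 changed places, and Mycn went from the third place to the fourth with PI3Kdi in WT, and from the second to the fourth in the KO. Myc had the highest mean of the network in all 4 groups.

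**Figure D1:**
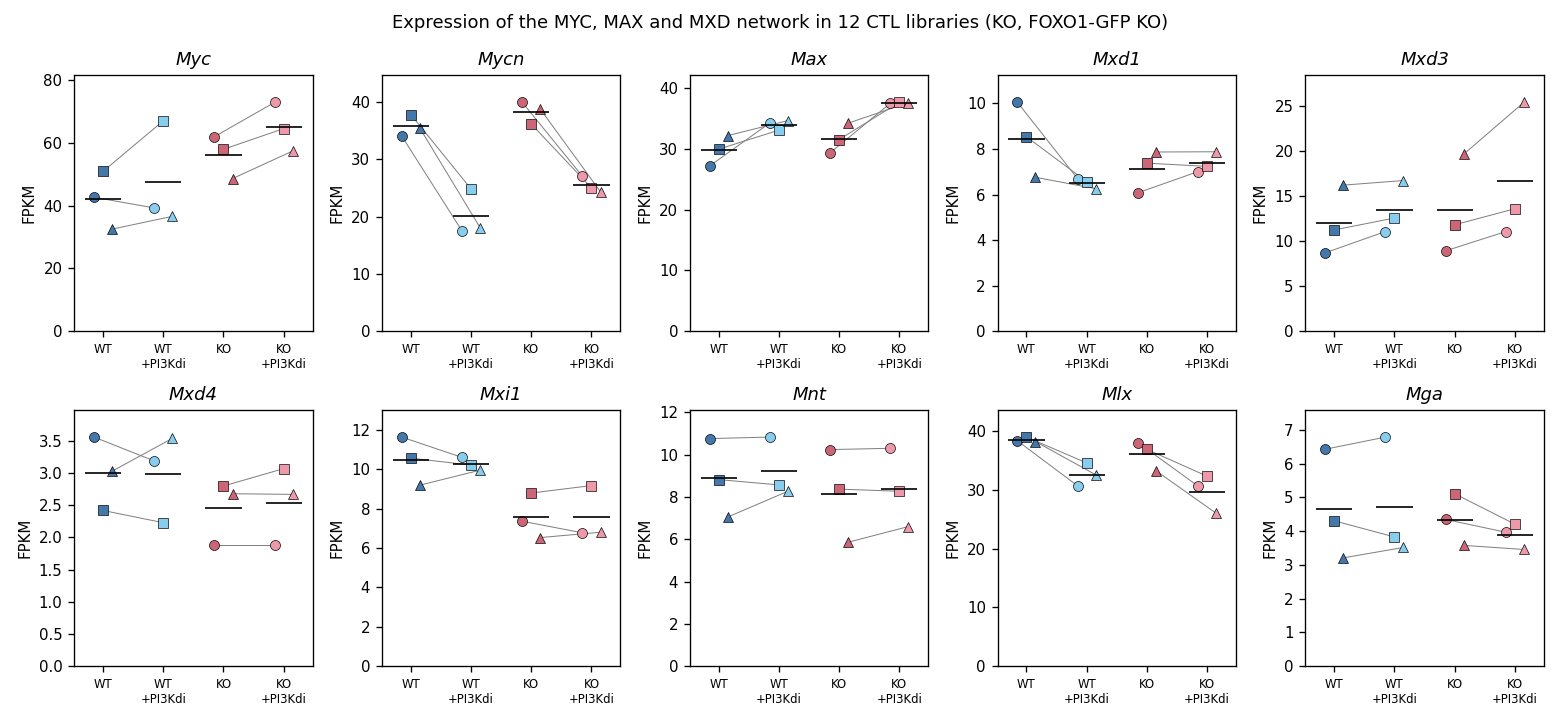
FPKM (linear axes from 0) of the 10 network genes in the 12 libraries. Circles, squares and triangles are replicates 1, 2 and 3, horizontal bars are the means of 3 libraries, and grey lines join libraries with the same number in a genotype. Mycn and Mlx are lower and Max is higher with PI3Kdi along every line in both genotypes, and the 6 KO libraries of Mxi1 lie below the 6 WT libraries.

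Among the MYC proteins, Mycn was the gene with the greatest difference on PI3Kdi treatment. Mycn encodes N-MYC, which is best known from neural and haematopoietic progenitors. In WT it was at 34.0, 37.7 and 35.4 FPKM, and in WT+PI3Kdi at 17.5, 24.8 and 18.1 FPKM. The groups did not overlap, and replicate 2 of WT+PI3Kdi was the highest treated library. The difference was -0.84 on the log2(FPKM + 0.1) scale with a standard error of 0.13, a 1.79-fold lower level, and this is the value by which the network had drawn attention.

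The observation that drew attention to the network was of WT libraries. The members were chosen with earlier results of these data known, and the fit takes its spread from all 12 libraries. The FOXO1-GFP KO values are thus not an independent check of it. In FOXO1-GFP KO, Mycn was at 39.9, 36.1 and 38.7 FPKM, and with PI3Kdi at 27, 25.0 and 24.3 FPKM. All 3 treated libraries were below all 3 untreated ones, by 0.53 to 0.67 log2 units within the numbered pairs. The mean difference was -0.59 (SE 0.13), a 1.5-fold lower level, which did not pass in the limma fit without a replicate block (adjusted p = 0.273). Libraries of a genotype that shared a replicate number deviated together, and with this replicate block in the limma fit the adjusted p was 0.00087, with a 95% interval of -0.74 to -0.43. The fold change lay at the 1.5-fold limit, and the call ended at -0.55 when replicate 3 of either KO group was left out and at -0.57 when libraries were centred on their medians, each time because the fold and not the p missed its limit.

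**Figure D2:**
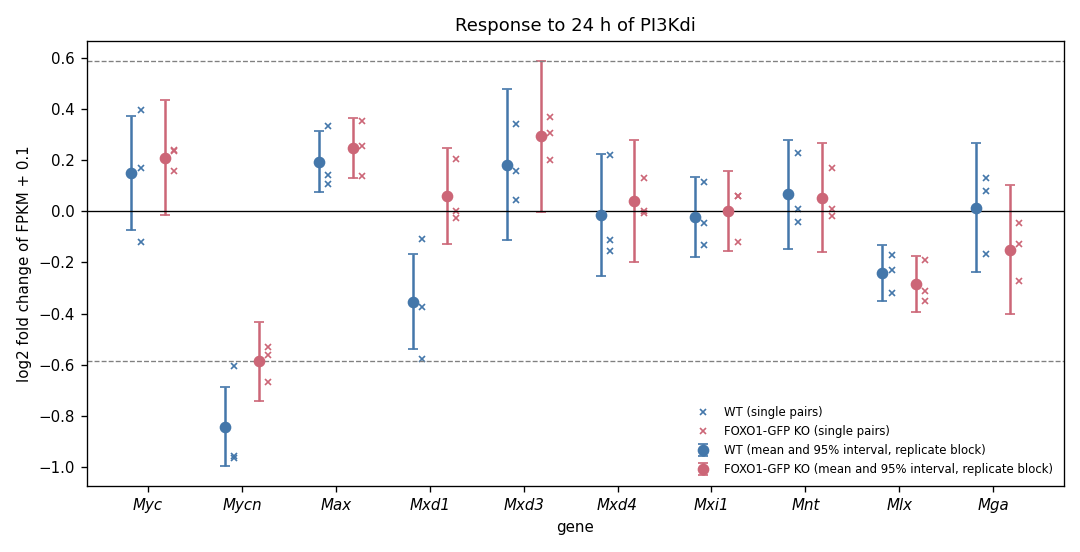
Log2 fold change of FPKM + 0.1 with PI3Kdi in WT (blue) and FOXO1-GFP KO (red). Dots with bars are limma means and 95% intervals with the replicate block, crosses are the 3 single pairs of each genotype, and dashed lines mark a 1.5-fold change. The Mycn means are at -0.84 and -0.59, and no other gene reaches a dashed line with its mean.

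Myc, which encodes c-MYC, did not share the difference. It was at 42.7, 50.9 and 32.5 FPKM in WT and at 39.3, 66.9 and 36.6 FPKM in WT+PI3Kdi, so the groups overlapped and the treated libraries were higher in 2 of 3 pairs. In FOXO1-GFP KO it was at 61.9, 57.9 and 48.6 FPKM and with PI3Kdi at 72.8, 64.5 and 57.4 FPKM, higher in 3 of 3 pairs. The log2 fold changes of Myc were 0.15 (WT) and 0.21 (KO), with 95% intervals under the replicate block of -0.08 to 0.37 and -0.01 to 0.43, and neither passed (limma adjusted p with the block 0.414 and 0.193). The fitted Myc value in WT was -0.12 without replicate 2 of WT+PI3Kdi and -0.02 without WT replicate 3, so its sign turned when either library was left out.

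Mycn made up less of the MYC mRNA in treated cells. Its share of the summed Myc and Mycn FPKM was 44.4%, 42.6% and 52.1% in WT and 30.8%, 27% and 33.1% in WT+PI3Kdi. In FOXO1-GFP KO the share was 39.2%, 38.4% and 44.3%, and with PI3Kdi it was 27%, 27.9% and 29.8%. Untreated and treated libraries did not overlap in either genotype. In WT the share is built from the Mycn values for which the network was noted, so it is a description as well. The summed level of both genes was 77.7 ± 10.4 FPKM in WT and 67.7 ± 20.8 after PI3Kdi, 94.3 ± 7.26 FPKM in the KO and 90.3 ± 9.12 after PI3Kdi (SD, n = 3), and these sums overlapped between treated and untreated libraries.

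**Figure D3:**
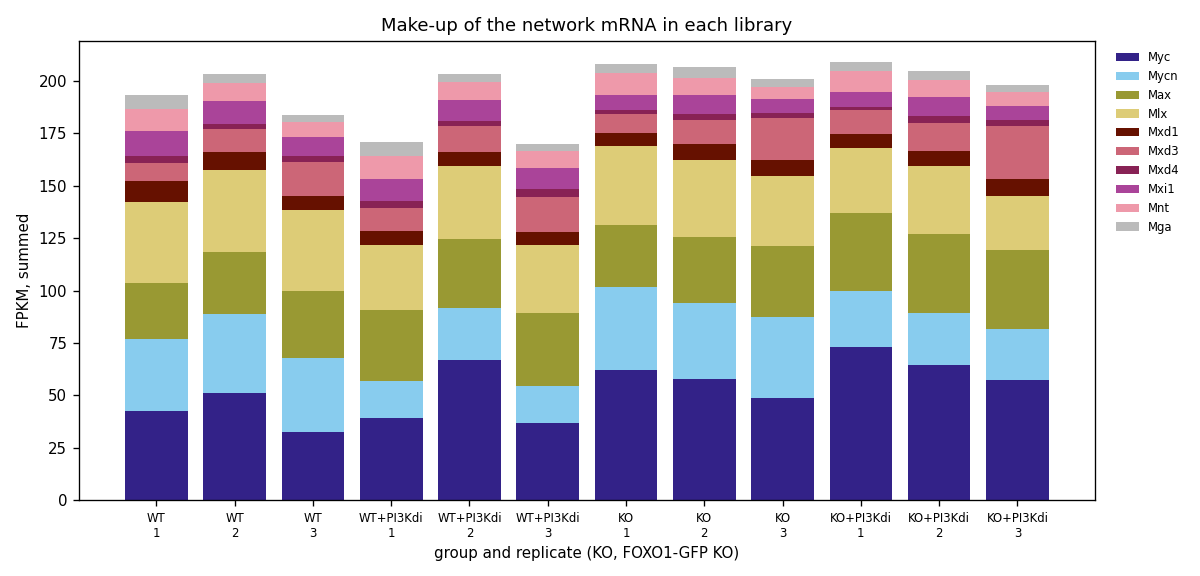
Summed FPKM of the 10 genes in each of the 12 libraries, stacked by gene, with Myc and Mycn at the bottom. The Mycn segment is 34.0 to 39.9 FPKM in untreated and 17.5 to 27 FPKM in treated libraries, and the Myc segment is 32.5 to 72.8 FPKM with no such separation.

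Max moved the other way by a small amount. It was at 27.1, 29.9 and 32.1 FPKM in WT and at 34.2, 33.0 and 34.6 FPKM in WT+PI3Kdi. The KO libraries were at 29.3, 31.5 and 34.2 FPKM, and at 37.4, 37.6 and 37.5 FPKM with PI3Kdi. Treated libraries were above untreated ones in both genotypes without overlap. The log2 fold change was 0.19 in WT, where the limma adjusted p was 0.0506 with the replicate block and 0.960 without it, and 0.25 in FOXO1-GFP KO, where Max rose with the block (adjusted p = 0.017) and did not pass without it (0.781). Both values are under the 1.5-fold limit. In FOXO1-GFP KO the blocked adjusted p was 0.0563 to 0.0841 when replicate 1 or 2 of either KO group was left out, and in WT it was under 0.05 when replicate 1 or 3 of either KO group was left out.

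The MXD and MNT repressors mostly gave values near 0. Mxd1, which encodes MAD1 and is induced when myeloid and lymphoid cells differentiate, was at 10.1, 8.54 and 6.76 FPKM in WT and at 6.70, 6.57 and 6.26 FPKM in WT+PI3Kdi. All treated WT libraries were below all untreated ones, although the pairs ran from -0.58 to -0.11 log2 units, and the mean of -0.35 had a limma adjusted p of 0.0282 with the replicate block and 0.866 without it. With the block as fixed terms it was 0.0624, and without replicate 1 or 2 of either WT group the blocked adjusted p was 0.102 to 0.165. In FOXO1-GFP KO, Mxd1 was at 6.08, 7.38 and 7.87 FPKM and with PI3Kdi at 7.01, 7.24 and 7.88 FPKM, groups that overlapped at a log2 fold change of 0.06. The test of the difference between these responses did not pass: it was 0.41 log2 units with a 95% interval of 0.15 to 0.68 and an adjusted p of 0.215 with the block, and 1 without it.

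Mxd3, a MAD protein associated with proliferating cells, was at 8.72 to 16.2 FPKM in WT and 11.1 to 16.7 after PI3Kdi, and at 8.94 to 19.7 FPKM in the KO and 11.1 to 25.4 after PI3Kdi. It was higher with PI3Kdi in 3 of 3 pairs of both genotypes, with mean log2 fold changes of 0.18 and 0.29 that did not pass with the block (limma adjusted p 0.452 and 0.173). With the block as fixed terms the adjusted p was 0.143 in WT and 0.0256 in the KO. Mxd3 spread most among replicates, with replicate 3 the highest library of every group and up to a 2.29-fold range within a group. On the log2 scale its SD between pairs was 0.50 and that of the differences within pairs 0.12, whereas for Mlx they were 0.10 and 0.08.

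Mxd4, Mxi1, Mnt and Mga had log2 fold changes from -0.15 to 0.07 with PI3Kdi over both genotypes. Mxd4 was at 2.42 to 3.56 FPKM in WT and 2.23 to 3.54 after PI3Kdi, and at 1.88 to 2.80 FPKM in the KO and 1.88 to 3.07 after PI3Kdi. Mnt, the most widely expressed of the repressors, was at 7.05 to 10.8 and 8.27 to 10.8 FPKM in WT and WT+PI3Kdi, and at 5.86 to 10.2 and 6.60 to 10.3 FPKM in the KO groups. Mga was at 3.21 to 6.43 and 3.52 to 6.79 FPKM in the WT groups and at 3.58 to 5.11 and 3.46 to 4.21 FPKM in the KO groups, and it was lower with PI3Kdi in 3 of 3 KO pairs (-0.15) but in 1 of 3 WT pairs. The 95% intervals with the block kept the responses of these 4 genes within -0.40 to 0.28 log2 units. The summed level of Mxd1, Mxd3, Mxd4, Mxi1 and Mnt was 42.9 ± 1.64 FPKM in WT and 42.4 ± 2.30 after PI3Kdi, and 38.8 ± 4.07 FPKM in the KO and 42.6 ± 6.26 after PI3Kdi (SD, n = 3).

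Mlx was lower by a small and even amount. It was at 38.3, 38.97 and 38.2 FPKM in WT and at 30.7, 34.6 and 32.6 FPKM in WT+PI3Kdi. The KO libraries were at 38.1, 36.9 and 33.3 FPKM, and at 30.6, 32.3 and 26.0 FPKM with PI3Kdi. Treated libraries were below untreated ones in 3 of 3 pairs and without overlap in both genotypes. The log2 fold changes were -0.24 and -0.28, with limma adjusted p of 0.0142 and 0.00617 with the replicate block and 0.856 and 0.734 without it. In WT the blocked adjusted p was 0.0525 to 0.0936 without replicate 1 or 3 of either group. Mlx shares 385 exon bases, 19.3% of its exon length, with Psmc3ip on the other strand, and the strand used for counting is not given in the sources used here. Psmc3ip was at 7.18 to 10.6 FPKM in WT and 6.61 to 8.89 after PI3Kdi, and at 9.49 to 12.7 FPKM in the KO and 10.6 to 10.97 after PI3Kdi, with log2 fold changes of -0.19 and 0.04 that did not pass (adjusted p with the block 0.185 and 0.743). Mxd3, in the same way, shares 105 exon bases with Prelid1, which was at a mean of 222 FPKM and had log2 fold changes of -0.02 and 0.04.

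Counted over the network, 1 of the 10 genes, Mycn, was called in WT with PI3Kdi at an adjusted p under 0.05 and a fold change over 1.5, both without the block, where 0.0979% of all genes were called, and with it, where 2.57% were. In FOXO1-GFP KO, 0 of 10 were called without the block, against 0.0452% of all genes, with 3 of 10 at an unadjusted p under 0.05 where 5.17% of all genes were, and 1 of 10, Mycn, was called with the block, against 2.79%. At an adjusted p under 0.05 and any fold change with the block, Mycn, Mxd1 and Mlx passed in WT, 3 of 10 against 7.41% of all genes, and Mycn, Max and Mlx passed in FOXO1-GFP KO, 3 of 10 against 10.1%. Treated and untreated libraries did not overlap for 4 of 10 genes in WT (Mycn, Max, Mxd1 and Mlx), where 10.2% of all genes did so, and for 3 of 10 in FOXO1-GFP KO (Mycn, Max and Mlx), where 10.1% did. The call of Mycn in WT is a description and not a test, as said above. Counts that include Mycn, in WT and in FOXO1-GFP KO, are not independent of how the network was chosen.

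Whether the response differed between genotypes was tested by the difference of the PI3Kdi responses, FOXO1-GFP KO minus WT. None of the 10 genes was called: 0 of 10 without the block, where limma called 0% of all genes and an unadjusted p under 0.05 was reached by 0 of 10 against 1.51%, and 0 of 10 with the block, where 0.0226% of genes were called. With the block, 2 of 10, Mycn and Mxd1, had an unadjusted p under 0.05, as did 10.8% of all genes. For Mycn the difference was 0.26 log2 units with a 95% interval of 0.04 to 0.47 with the block, and it includes the WT response for which the gene was noted. The differences of Myc, Max and Mlx were 0.06, 0.05 and -0.04, with intervals of -0.26 to 0.38, -0.11 to 0.22 and -0.20 to 0.11.

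Loss of FOXO1 was compared next, first without PI3Kdi and then with it. These comparisons use the same libraries as the responses above. FOXO1 is the transcription factor that PI3K signalling keeps out of the nucleus, and FOXO factors have been linked to Mxi1 transcription in other cell types. Mxi1 libraries gave 11.6, 10.6 and 9.19 FPKM in WT against 7.36, 8.79 and 6.53 FPKM in the KO. With PI3Kdi, WT libraries gave 10.6, 10.2 and 9.95 FPKM against 6.77, 9.17 and 6.80 FPKM in the KO. Every KO library was below every WT library, by a margin of 9.17 against 9.19 FPKM at the closest. The log2 fold changes were -0.47 (95% interval with the block -0.79 to -0.15) and -0.45 (-0.76 to -0.13). The limma adjusted p was 0.367 and 0.255 without the block and 0.413 and 0.274 with it, so Mxi1 did not pass in either comparison. The B cell marker sums given above, 13.7 to 20.7 FPKM in the WT groups against 5.75 to 8.49 FPKM in the KO groups, separated the genotypes in the same direction. Ighm held most of this separation, with means of 8.67 FPKM in WT against 2.83 in the KO, and 12.3 against 2.35 with PI3Kdi. All 4 markers were lower in the KO without PI3Kdi and 3 of 4 with it, where Cd74 was higher (1.91 against 1.34 FPKM). The part of B cells in the Mxi1 values was not tested. PI3Kdi itself left Mxi1 at log2 fold changes of -0.02 (WT) and 0.00 (KO).

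**Figure D4:**
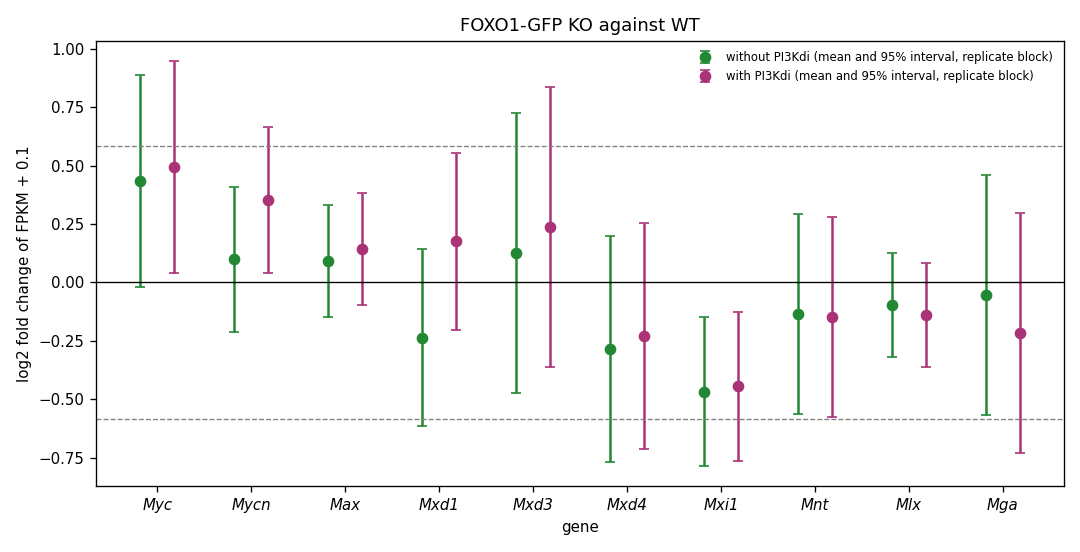
Log2 fold change of FPKM + 0.1 in FOXO1-GFP KO against WT, without PI3Kdi (green) and with it (purple). Dots with bars are limma means and 95% intervals with the replicate block, and dashed lines mark a 1.5-fold change. Mxi1 is the gene whose interval lies below 0 in both comparisons, and no mean reaches a dashed line.

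Myc was higher in FOXO1-GFP KO, at log2 fold changes of 0.43 without and 0.49 with PI3Kdi, but WT and KO libraries overlapped in both comparisons and neither passed (limma adjusted p 0.888 and 0.489 without the block, 0.9998 and 0.489 with it). Mycn was at a log2 fold change of 0.10 without PI3Kdi and 0.35 with it (adjusted p 0.9998 and 0.291 without the block). In the second comparison, its KO libraries at 24.3 to 27 FPKM overlapped WT libraries at 17.5 to 24.8 FPKM through replicate 2 of WT+PI3Kdi, and without that library the value was 0.51 with an adjusted p of 0.0416 without the block, still under the fold limit. With the block, the lowest adjusted p over the left-out libraries was 0.0516. The ratio of summed Myc and Mycn to summed MXD and MNT FPKM was 1.82 ± 0.277 in WT against 2.47 ± 0.454 in the KO, and with PI3Kdi 1.61 ± 0.583 against 2.17 ± 0.521 (SD, n = 3), with WT and KO overlapping in both cultures. None of the 10 genes was called for genotype. Without PI3Kdi, 0 of 10 were called in either limma fit, where 0.331% of all genes were called without the block and 0.233% with it. In either fit 1 of 10 had an unadjusted p under 0.05, as did 6.51% of all genes without the block and 5.09% with it. With PI3Kdi, 0 of 10 were called, where 1.45% of all genes were called without the block and 1.18% with it. At an unadjusted p under 0.05 there were 2 of 10 without the block, against 10.2% of all genes, and 3 of 10 with it, against 9%. WT and KO libraries did not overlap for 2 of 10 genes without PI3Kdi (Mxi1 and Mlx), where 10.3% of all genes did so, and for 3 of 10 with PI3Kdi (Max, Mxd1 and Mxi1), where 14.8% did.

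Genes around the network were read from lists. Of all genes, 2.57% (WT) and 2.79% (KO) were called with PI3Kdi under the block, so a short list can hold 0 calls by that rate alone. Of 26 MYC target genes, which serve ribosome building, nucleotide and polyamine synthesis, glycolysis, amino acid uptake and the cell cycle, all 26 were in the table and 0 were called in any comparison in either limma fit. Their median log2 fold change with PI3Kdi was -0.07 (WT) and -0.12 (KO), where the median of all genes was -0.04 and -0.02. With the block, 0 of 26 passed an adjusted p under 0.05 at any fold change in WT, where 7.41% of all genes did, and 4 of 26 (15.4%) did so in FOXO1-GFP KO, where 10.1% of all genes did. The 4 were Odc1, the rate-limiting enzyme of polyamine synthesis (-0.42), Tfrc, the transferrin receptor (-0.41), Ldha, lactate dehydrogenase (-0.29), and Pkm, pyruvate kinase (-0.23), with a lower level in each case. Npm1, a nucleolar chaperone with the highest mean of the list over the 12 libraries, was at 692 FPKM in WT and 641 FPKM in WT+PI3Kdi, with log2 fold changes of -0.11 and 0.01 that did not pass.

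**Figure D5:**
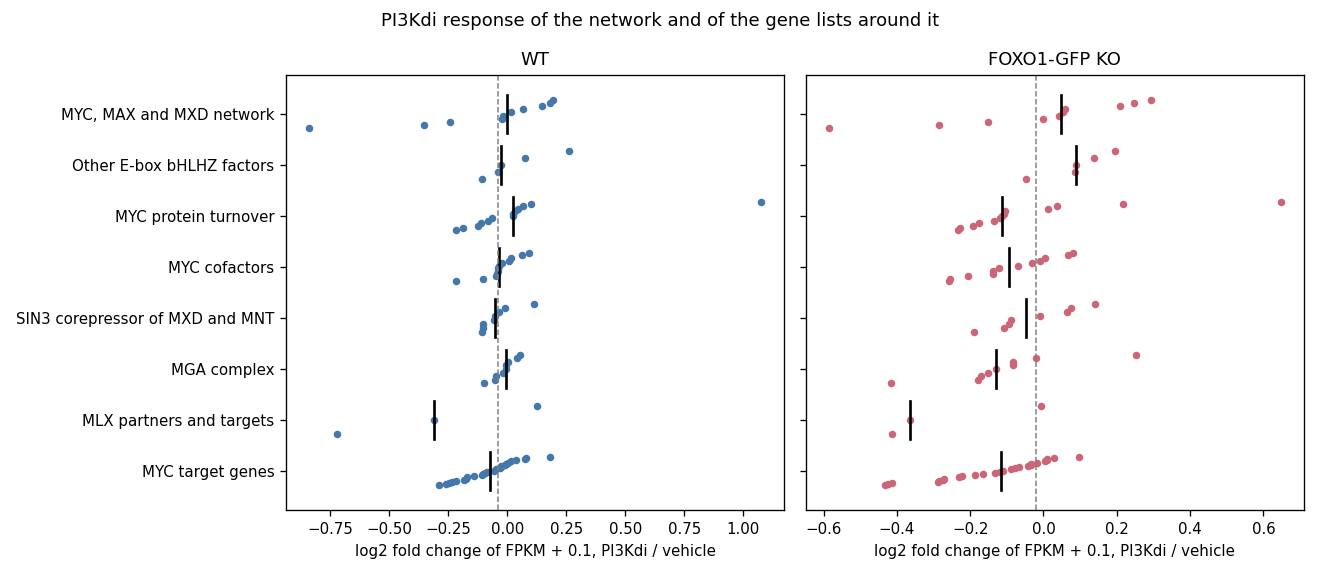
Log2 fold change of FPKM + 0.1 with PI3Kdi for the 10 network genes and 7 lists of related genes, WT on the left and FOXO1-GFP KO on the right. Each dot is a gene, black bars are list medians and dashed lines the medians of all genes, -0.04 and -0.02. The dots farthest from 0 are Pim2, at 1.08 and 0.65, and Mycn, at -0.84 and -0.59.

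Of the MLX partners and targets, 3 of 4 were in the table, and 0 were called without the block. Txnip, which restrains glucose uptake and is a standard MONDOA and MLX target, was at 126 FPKM in WT and 101 FPKM after PI3Kdi, and at 137 FPKM in the KO and 103 FPKM after PI3Kdi. It fell with the block in both genotypes, by log2 fold changes of -0.31 and -0.41 (limma adjusted p 0.0203 and 0.00517). Arrdc4, its arrestin-domain relative, was at 1.54 FPKM in WT and 0.893 FPKM in WT+PI3Kdi and was called lower there with the block (-0.72, adjusted p = 0.00783), and in FOXO1-GFP KO its value was -0.36 (adjusted p = 0.103). Mlxip, which encodes MONDOA, was at log2 fold changes of 0.13 and -0.01.

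In the list of genes for MYC protein turnover, 1 of 13, Pim2, was called. Under the block 2.57% (WT) and 2.79% (KO) of all genes were called with PI3Kdi, and 1.18% for genotype with PI3Kdi. Pim2 encodes a growth-promoting serine/threonine kinase that phosphorylates and stabilises MYC, and it was at 32.7 FPKM in WT and 68.8 after PI3Kdi, and at 14.7 FPKM in the KO and 23.3 after PI3Kdi. It was called higher with PI3Kdi in both genotypes with the block (log2 fold changes of 1.08 and 0.65, limma adjusted p 0.000251 and 0.006) and in neither without it. It was also called lower in FOXO1-GFP KO+PI3Kdi than in WT+PI3Kdi in both fits, at a log2 fold change of -1.64. Fbxw7, the ubiquitin ligase subunit that marks MYC and MYCN for destruction, was at log2 fold changes of -0.08 and -0.11 with PI3Kdi and did not pass.

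The partners of the repressors gave 0 calls in any comparison, which lists this small can do at the shares of all genes given above. These were 8 of 8 genes of the SIN3 corepressor (for example Rbbp7, Hdac1 and Rbbp4), 9 of 9 of the MGA complex (for example Tfdp1, Wdr5 and Cbx3), and 12 of 12 MYC cofactors (for example Ruvbl2, Ruvbl1 and Hcfc1). Their median log2 fold changes with PI3Kdi were -0.05, -0.01 and -0.04 in WT and -0.05, -0.13 and -0.10 in FOXO1-GFP KO. At any fold change, 1 of the 12 cofactors, Actl6a, passed in FOXO1-GFP KO (-0.21, limma adjusted p = 0.0476 with the block), against 10.1% of all genes. Of 8 other E-box factors of the same domain, 5 were in the table and 0 were called, with medians of -0.03 and 0.09. Among them Usf1, Usf2 and Tfap4 were the most abundant.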

How the data were processed

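Poly(A) RNA of 12 sorted CTL cultures was sequenced in paired 75-base reads on a HiSeq instrument. The deposited FPKM values were made by the authors with STAR 2.7.1a on GRCm38.p6 with gene counts, an edgeR filter on low counts, TMM scaling and summed exon length. No further filter was applied. Values were fitted as log2(FPKM + 0.1) in limma 3.58.1 (R 4.3.3), with 4 group means over all 12 libraries, an empirical Bayes trend and Benjamini-Hochberg adjustment over 13283 genes. A call needed an adjusted p under 0.05 and a fold change over 1.5. The second fit took genotype and replicate number as a random replicate block, consensus correlation 0.757. The pairing comes from the replicate numbers in the labels. Deviations of same-numbered libraries correlated at 0.594 to 0.838 within genotypes, and at -0.409 to 0.730 across genotypes, so only the former were paired. The labels call the libraries biological replicates without naming animals, so p-values set each difference against a spread among these libraries only. Under the block, the single correlation of 0.757 served all genes, so a gene's error is not its own spread of differences within numbered pairs. For Mxd3 with PI3Kdi in WT the standard error was 0.136 with this block and 0.0657 with the block as fixed terms. For Max it was 0.0542 and 0.0591. In both fits the spread is moderated over all genes. In data simulated for the WT comparison (13283 genes, 200 changed by 1 log2 unit), most of each gene's variance was set as shared within numbered pairs. The fit recovered 70.5% without and 95% with the block, a gain that this setting built in. The member differences in WT were smaller, at most -0.84 (Mycn), and recovery at such sizes was not tested. The pairing of the real libraries was not tested in this way either. Library sizes were estimated from whole-read steps of short genes, and 98.6% to 100% of held-out values came out whole within 0.2 reads, where 40% would by chance. Exon positions are from GENCODE M21. The members and lists were chosen with earlier results of these data known. Named genes were every member, Foxo1, and of each list the genes called or otherwise the most abundant. Odc1, Tfrc, Txnip, Mlxip, Fbxw7, Psmc3ip and Prelid1 were added after their values were seen. Alternatives changed the pseudocount, filter, scaling, block, libraries fitted and weights.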

Additional observations from a re-analysis of the deposited data

How the results depend on the processing

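Under the pseudocounts, filter, scalings, blocks, voom weights, compared groups alone and left-out libraries that were tried, no member's called fold change reversed. The count of members called in WT with PI3Kdi was 1, and 0 with median centring and with the compared groups alone. It ran from 0 to 1 when single libraries were left out: without a replicate block it was 1 without WT+PI3Kdi replicate 2 and 0 without any other library, and the Mycn fold change, which is a description, ran from -1 to -0.75 on the log2 scale. In FOXO1-GFP KO the count was 0 without the block and 1 with the replicate block as a random effect, as fixed terms or with voom, an alternative chosen after seeing the data. With the block it was 0 under median centring and 0 to 1 when single libraries were left out, also chosen after seeing the data, and the Mycn fold change then ran from -0.62 to -0.55. For Max and Mlx, leaving out libraries with the block moved the adjusted p across 0.05, from 0.0377 to 0.252 for Max and 0.0108 to 0.0936 for Mlx in WT, and from 0.0129 to 0.0841 for Max in FOXO1-GFP KO, and for Mxd1 in WT from 0.00879 to 0.165. With the block as fixed terms Mxd1 in WT had an adjusted p of 0.0624 and Mxd3 in FOXO1-GFP KO 0.0256, and with median centring and the block Max in WT had 0.0231. The other member counts stayed at 0. Calls over all genes with PI3Kdi rose from 13 to 342 in WT and from 6 to 370 in FOXO1-GFP KO with the replicate block. The block changed no other member's call. Every member had at least 288 reads in every library.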

Other observations

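Among the 10373 genes whose mean reached 1 FPKM, the levels most like those of Mycn over the 12 libraries were Ccl3, a chemokine (Pearson r = 0.93), Pdcd1lg2, the PD-L2 ligand (r = 0.91), and Spp1, osteopontin (r = 0.91). For Myc they were Dusp10, a MAP kinase phosphatase (r = 0.84), Il24 (r = 0.82) and Ccdc40 (r = 0.81). The libraries of a genotype come in pairs, and all of them share the 4 group differences, so these values describe the table and were not tested.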
